A study of Arabidopsis thaliana and Nicotiana benthamiana and Solanum lycopersicum with 20 samples.

Results

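The sites described here are 1696 places in the maize nuclear genome where both ChIP-seq replicates of GLK2 had a peak summit and neither replicate of GLK1 had one nearby. They were selected by the summit positions and fold changes in the deposited peak lists, so their number, their GLK2 fold change and the gap of at least 150 bp to a GLK1 summit follow from the rule and are given as a description, without a test. A summit of GLK2 replicate 1 on chromosomes 1 to 10 was taken when its fold change over the control was 5 or more, a GLK2 replicate 2 summit with a fold change of 5 or more lay less than 150 bp away, and no summit of either GLK1 list, whatever its fold change, did. Since each line of the lists is a window of 150 bp around a summit, windows of summits less than 150 bp apart share at least 1 base. Of 4659 GLK2 summits paired between the replicates in this way, 1696 had no GLK1 summit (36.4%, 95% Wilson interval 35.0 to 37.8) and 2963 had one. The 20 lists of the series hold 480034 summits in all. Intervals cover counting error only, and neighbouring summits can come from the same peak, so sites are not independent of each other.

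The series compares the binding of the TFs GLK1 and GLK2 in leaves of 5 plant species, and only its 4 maize libraries are used here. ZmGLK2 (Zm00001d039260) and ZmGLK1 (Zm00001d044785) each have 2 replicates. In the labels the tissue is leaf, whereas the study's list of constructs gives leaf protoplasts of the inbred line B73 (plant cells freed of their walls) that expressed either TF with a biotin tag from the vector p35S-GW-3Avi. The labels name streptavidin beads for the pull-down, and the study took its maize data from earlier work. The series description gives the expression as transient. All 4 libraries therefore carry a TF expressed from a plasmid next to the plant's own GLK genes, and a cell line, clone or mutant is not part of the comparison. The peak lists hold no marker gene from which the tissue could be checked.

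GLK proteins are plant TFs of the GARP family that switch on genes for chlorophyll synthesis, light-harvesting proteins and photosystem subunits, and so promote the development of chloroplasts. The family is named after the maize gene GOLDEN2, whose mutants have pale leaves. In the C4 leaf of maize the 2 members of the pair are known for their split between the bundle sheath and the mesophyll cells. In Arabidopsis GLK1 and GLK2 largely act in each other's place, and the question put to the maize lists here is which GLK2 sites have no GLK1 counterpart.

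The maize lists differ in length. On chromosomes 1 to 10 the GLK2 lists had 13698 and 6700 summits in replicates 1 and 2, against 6497 and 4533 in the GLK1 lists. Of the GLK2 summits, 43.0% and 52.3% lay in a peak region with more than 1 summit, whereas in the GLK1 lists 9.59% and 11.6% did. A peak list does not hold the read depth, so a GLK2 site without a GLK1 summit and a GLK1 site under the calling threshold cannot be told apart. From reads over the joined peaks of both TFs, the study reported correlated GLK1 and GLK2 coverage in all species it examined. It proposes that peaks of only 1 of the TFs are weaker than shared ones, and it concluded that both have the same binding profile. Reads were not used here. The study's reporting summary gives a single range of read counts for its maize ChIP-seq libraries. Among the 4 maize libraries, the share of reads in peaks it reports is highest in GLK2 replicate 1, the starting list, and lowest in GLK2 replicate 2. The part of this enrichment in the count of sites was not tested. Seen from the GLK1 side, 255 of 2364 paired GLK1 summits (10.8%, 9.60 to 12.1) had no GLK2 summit less than 150 bp away. The part of list length in this difference between 36.4% and 10.8% was not tested. The longer lists are those of the TF with the larger unmatched share.

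Most GLK2 summits did not enter the comparison at all. Of the 10771 summits of GLK2 replicate 1 with a fold change of 5 or more, 6112 had no partner in replicate 2. The 1696 sites were matched to 1588 different replicate 2 summits, and 216 of them share such a partner with another site of the set. They lie in 1335 peak regions of replicate 1. With replicate 2 as the starting list, 1586 of 4586 paired summits had no GLK1 summit, a share of 34.6% (33.2 to 36.0). Of the 2963 sites with a GLK1 summit, 1785 had it in both GLK1 lists, 773 in replicate 1 alone and 405 in replicate 2 alone.

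GLK2 binding was weaker at the sites without a GLK1 summit than at those with one. In replicate 1 the median fold change was 13.9 (quartiles 9.99 and 20.6) without a GLK1 summit and 19.4 (12.6 and 32.4) with one, a log2 difference of -0.48. In replicate 2 the medians were 7.27 (5.93 and 10.3) and 10.8 (7.27 and 17.6), a log2 difference of -0.57. The quartile ranges of both kinds of site overlapped widely in both replicates. The medians were ordered by how often GLK1 was found. Sites with a GLK1 summit in 1 list had medians of 15.5 and 8.67 in replicates 1 and 2, and sites with one in both lists had 22.9 and 12.8.

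**Figure D1:**
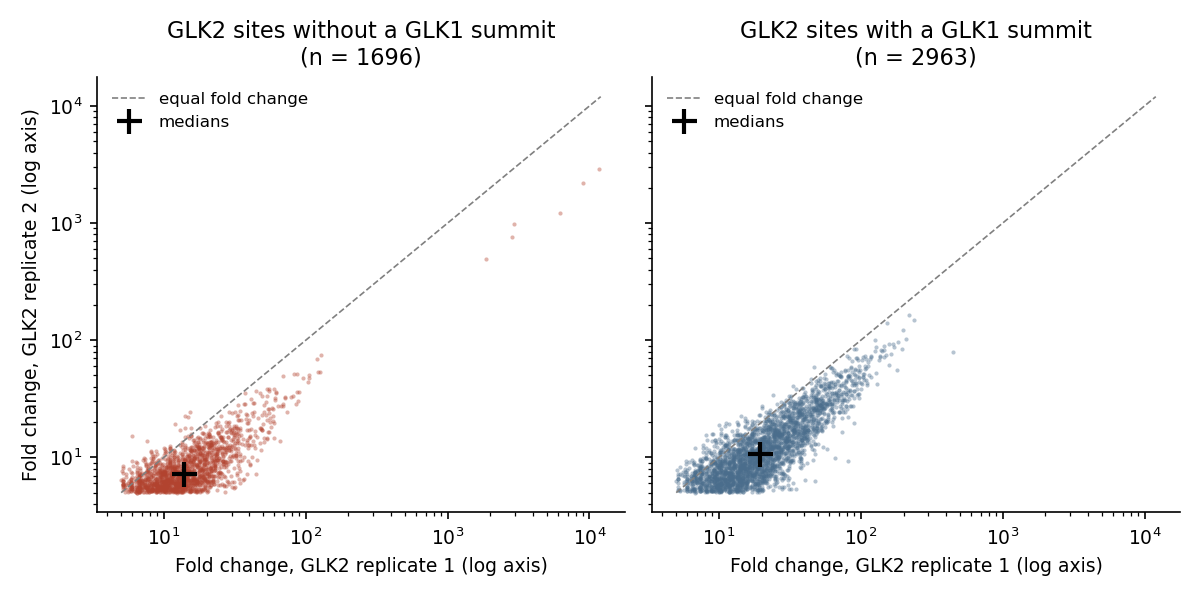
Fold change over the control in GLK2 replicate 1 (x, log axis) and replicate 2 (y, log axis) for 1696 GLK2 sites without a GLK1 summit (left) and 2963 with one (right). Each point is a site, the cross marks the medians (13.9 and 7.27 on the left, 19.4 and 10.8 on the right), and nearly all points of both panels lie under the line of equal values. The 6 isolated points at the upper right of the left panel are a group on chromosome 3.

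The q-values and ranks come from the same peak calls as the fold changes that chose the sites, and they are given only to show the scale. The median −log10 q was 22.6 in replicate 1 and 8.31 in replicate 2 at sites without a GLK1 summit, against 36.8 and 16.9 at sites with one. A rank among the 1000 highest of its list was held by 164 of the 1696 sites without a GLK1 summit and 751 of the 2963 with one in replicate 1. Counted from the rows of replicate 2, it was held by 110 of 1586 and 800 of 3000. A fold change of 50 or more in replicate 1 was reached by 63 sites without a GLK1 summit (3.71%) and 330 sites with one (11.1%).

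Replicate 1 gave the higher fold change at 92.9% of the sites without a GLK1 summit and at 91.8% of those with one, with median ratios of 1.78 and 1.73 between the replicates. The lists were made from each library alone, so this offset is one between 2 lists and not between kinds of site. Across sites, Spearman's rho between the fold changes of both replicates was 0.605 for the 1696 sites and 0.780 for the 2963 sites. These points share 2 libraries and a lower limit of 5 on both axes, and the sites without a GLK1 summit lie closer to that limit. The summits of both replicates were a median of 55 bp apart at sites without a GLK1 summit and 39 bp at those with one.

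The share of paired GLK2 sites that had no GLK1 summit fell with every step in strength. The 4659 sites were ranked by the geometric mean of both GLK2 fold changes and cut into quintiles. Beginning with the weakest quintile, 53.5%, 49.2%, 35.0%, 29.0% and 15.2% had no GLK1 summit less than 150 bp away. The Wilson intervals of the 2 weakest quintiles overlapped (50.3 to 56.7 and 46.0 to 52.5), and those of the other neighbouring quintiles did not. Those of quintiles 3 and 4 nearly met, at 32.02 and 31.96. Such intervals treat the sites as independent, which they are not, so their overlap is a description and not a test. When only sites at least 10 kb from any GLK1 summit were counted, the shares were 22.4%, 14.8%, 8.70%, 4.40% and 1.82%. In the strongest quintile, 17 of 932 sites were that far from GLK1. These 17 include the 6 sites of a single group on chromosome 3, described below.

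**Figure D2:**
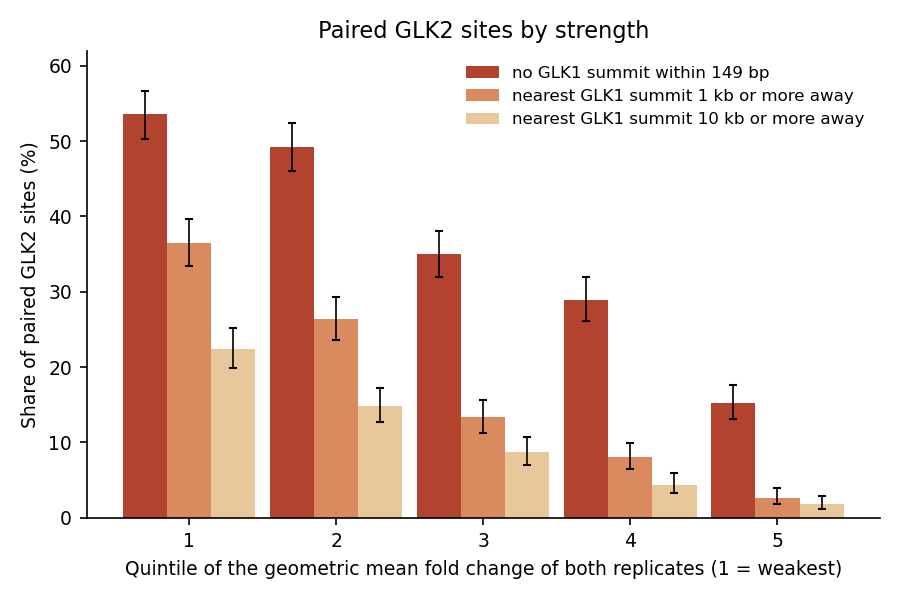
Share of paired GLK2 sites (%) in each quintile of the geometric mean GLK2 fold change, from the weakest to the strongest, that had no GLK1 summit less than 150 bp, 1 kb and 10 kb away. Error bars are 95% Wilson intervals. The first share is 53.5% in the weakest and 15.2% in the strongest quintile, and the share at 10 kb or more is 22.4% and 1.82%. The last value includes the 6 sites of the chromosome 3 group.

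The 6 strongest sites without a GLK1 summit formed one group at the start of chromosome 3 and stood far above the rest. Their summits in replicate 1 span 3255 bp of RefGen_v4, between 751205 and 754459. At 751205 the fold change was 11725 in replicate 1 and 2868 in replicate 2. At 754248 it was 8949 and 2212, and at 754459 it was 6171 and 1223. These 3 were the highest summits of both GLK2 lists. The remaining 3 lay at 753905 (2935 and 992), 753680 (2827 and 754) and 752753 (1869 and 493), and held ranks 4, 5 and 6 in both lists. The summits of both replicates were 1 to 20 bp apart in all 6. The lowest of the 6 was 4.18 times the highest other summit of the 10 chromosomes in replicate 1 (447) and 2.75 times that in replicate 2 (180). GLK1 had no summit inside the group, and its nearest was 92923 bp away in replicate 1 and 53399 bp in replicate 2.

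The GLK1 lists hold a group of the same kind on chromosome 9. It lies between 2408381 and 2409989, a span of 1609 bp. There, GLK2 replicate 1 had 3 summits within 500 bp of the span, with fold changes of 6.46, 12.7 and 7.99, and GLK2 replicate 2 had none nearer than 752753 bp. GLK1 had 6 summits with fold changes of 700 to 6078 in replicate 1 and 961 to 5767 in replicate 2. These ranked 1 to 6 in both GLK1 lists and were at least 2.03 and 2.02 times the next highest summit. Each TF therefore has 1 group of 6 summits that leads both of its own lists and is weak or missing in both lists of the other. No maize annotation was used, so which genes lie at either place is not given, and whether reads of the expression plasmid contribute there was not tested. Without the chromosome 3 group, 1690 sites were left, with medians of 13.8 and 7.25 in GLK2 replicates 1 and 2, and the highest fold changes were 129 and 74.3.

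**Figure D3:**
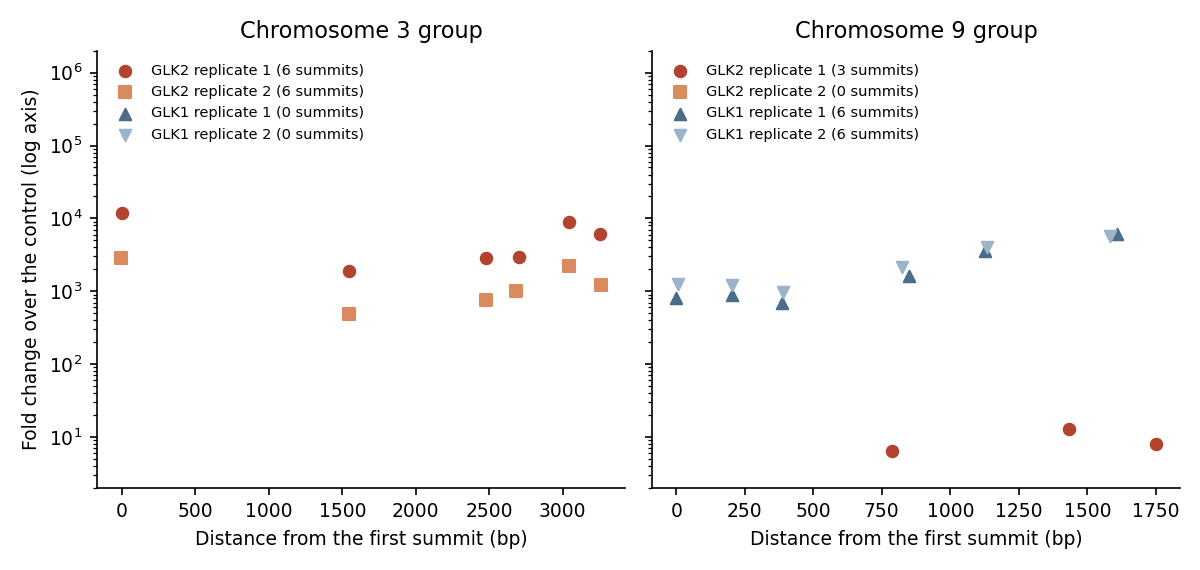
Fold change over the control (log axis) of each summit against its distance in bp from the first summit of the group, on chromosome 3 (left) and chromosome 9 (right), for both replicates of GLK2 and GLK1. On chromosome 3 there are 6 summits in each GLK2 list and 0 in the GLK1 lists. On chromosome 9 there are 3 weak summits in GLK2 replicate 1, 0 in GLK2 replicate 2 and 6 in each GLK1 list.

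The next strongest sites lay close to a GLK1 summit. The pair at 241006220 and 241006169 on chromosome 1 had fold changes of 129 and 120 in replicate 1 and 74.3 and 69.3 in replicate 2. Their nearest GLK1 summits were 239 and 188 bp away. The GLK1 summits nearest to both sites had fold changes of 9.23 in GLK1 replicate 1 and 6.08 in replicate 2. The medians over all GLK1 summits of chromosomes 1 to 10 were 7.15 and 6.39. Both sites belong to a region of 5 GLK2 summits that also holds a GLK2 site with a GLK1 summit. The site at 285326719 on chromosome 1 had 127 and 53.9 for GLK2 and its nearest GLK1 summits, at 282 and 233 bp, had 10.8 and 94.2. The site at 174548399 on chromosome 3 had 122 and 53.4 for GLK2, with GLK1 summits of 6.98 and 5.51 at 315 and 256 bp.

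GLK1 was strong next to some of these sites and much lower next to others. At 124458616 on chromosome 4, a site named after its values were seen, GLK2 had 105 and 44.0 and GLK1 had 148 and 96.3 at 178 and 163 bp. At 205894601 on chromosome 5, also named after its values were seen, GLK2 had 82.7 and 51.2 and GLK1 had 92.4 and 77.6 at 386 and 385 bp. At both, the GLK1 fold change was above that of GLK2 in both replicates, and the distance alone placed them in the set.

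On the remaining chromosomes the strongest site had lower values. Chromosome 4 had 105 and 47.6 at 191986469, where GLK1 had 41.1 and 14.8 at 175 and 177 bp. Chromosome 5 had 105 and 50.6 at 218884609, and chromosome 10 had 87.4 and 51.1 at 83289281. Chromosome 6 had 85.1 and 28.4 at 169009956, with GLK1 summits of 18.1 and 6.98 nearby. All of these lay 175 to 267 bp from GLK1. The strongest sites of chromosomes 8 and 9 had 73.2 and 24.4 at 28723100 and 71.6 and 33.0 at 145320943. At the chromosome 8 site GLK1 had 113 and 97.1 at 347 and 358 bp, whereas at the chromosome 9 site it had 7.23 and 7.53 at 208 and 242 bp. Chromosome 7 had 54.7 and 38.1 at 155750370, and chromosome 2 had 50.5 and 27.9 at 23924765, the lowest of the 10 in replicate 1. In replicate 2 the chromosome 8 site was lower.

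The lower limit of 5 was set by replicate 2 for the weakest sites. Just inside it were the sites at 136692901 on chromosome 9 (12.3 in replicate 1 and 5.01 in replicate 2), 116465529 on chromosome 4 (6.42 and 5.01) and 10720523 on chromosome 5 (6.50 and 5.01). Just outside were 23366285 on chromosome 2 (6.76 and 4.997), 23392080 on chromosome 9 (14.3 and 4.99) and 197048772 on chromosome 1 (7.50 and 4.98). The fold changes in replicate 1 overlapped across the limit.

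Although no GLK1 summit lay less than 150 bp away, GLK1 was often near. The distance to the nearest summit of either GLK1 list had a median of 826 bp, with quartiles of 265 and 17888 bp and a 90th percentile of 133270 bp. Of the 1696 sites, 477 (28.1%) lay at least 150 and under 300 bp from a GLK1 summit and 409 (24.1%) at least 300 bp and under 1 kb. A further 324 (19.1%) lay 1 to 10 kb away, 266 (15.7%) 10 to 100 kb and 220 (13.0%) 100 kb or more. The counts were highest close to the lower limit and stretched out past 1 Mb. The median was 1298.5 bp to GLK1 replicate 1 alone, with its 6497 summits, and 5116.5 bp to GLK1 replicate 2, with its 4533. The part of list length in this difference was not tested.

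**Figure D4:**
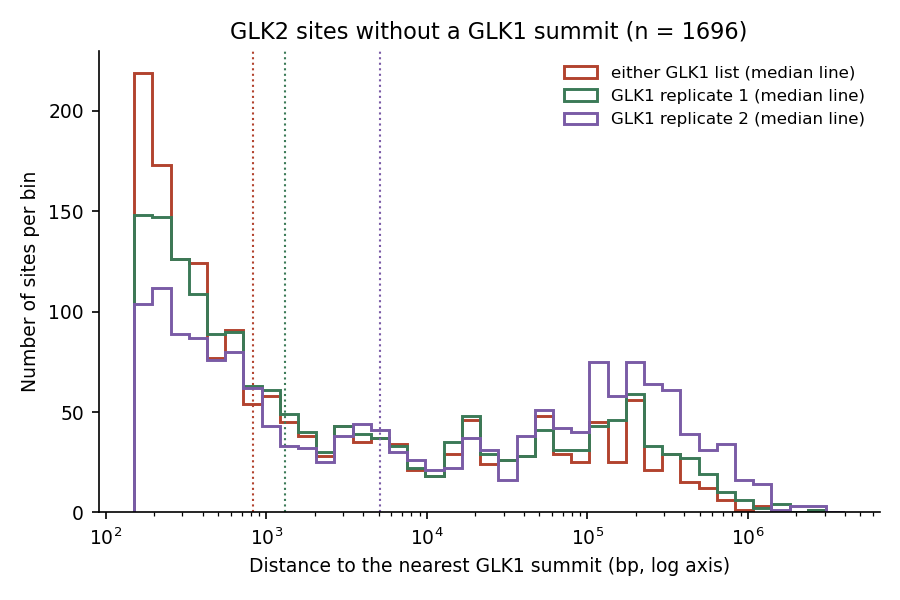
Number of GLK2 sites without a GLK1 summit (n = 1696) in equal bins of the log distance (bp) to the nearest summit of either GLK1 list, of GLK1 replicate 1 and of GLK1 replicate 2, with dotted lines at the medians of 826, 1298.5 and 5116.5 bp. The counts are highest close to the limit of 150 bp, and a lower, second rise above 100 kb is clearest for GLK1 replicate 2.

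Sites near to and far from GLK1 differed in strength and in the regions they came from. The median GLK2 fold change in replicates 1 and 2 was 18.3 and 8.76 under 300 bp, and 16.3 and 7.42 between 300 bp and 1 kb. It was 11.8 and 6.53 at 1 to 10 kb, 11.8 and 6.73 at 10 to 100 kb and 11.1 and 6.74 at 100 kb or more. The difference lay between the 2 bands under 1 kb and the 3 beyond, and the quartiles of neighbouring bands overlapped. Of the 57 sites with a fold change of 50 or more in replicate 1 outside the chromosome 3 group, 44 lay within 300 bp of GLK1, 11 between 300 bp and 1 kb, 1 at 1 to 10 kb and 1 at 100 kb or more. The nearest GLK1 summits had median fold changes between 5.54 and 7.13 over the 5 bands, near the medians of 7.15 and 6.39 over all GLK1 summits of these chromosomes in replicates 1 and 2.

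Many of the near sites shared a GLK2 peak region with a site that had a GLK1 summit. A peak region with more than 1 GLK2 summit held 1244 of the sites without a GLK1 summit (73.3%) and 1636 of those with one (55.2%). In 601 cases (35.4%) the same GLK2 region also held a site with a GLK1 summit. Of these 601, 113 (18.8%) were the highest summit of their region, and the median site had 0.698 of the fold change of the region's maximum. Of the other 643 sites in regions with several summits, 358 (55.7%) were the highest. By definition the regions of the 601 hold a competing paired site with a GLK1 summit and those of the 643 do not. The shares of 18.8% and 55.7% therefore cannot be compared directly. The share in a region with a GLK1 site was 56.0% under 300 bp, 71.4% between 300 bp and 1 kb, 13.0% at 1 to 10 kb and 0 beyond. Such a region has GLK1 next to a summit of its own, so its width limits how far its sites can lie from GLK1. The low shares at the larger distances are in part fixed by this. GLK2 regions were split into several summits more often than GLK1 regions, and the part of this difference in the count of 1696 was not tested. With those 601 sites left out, 1095 sites (27.0% of the paired sites then left) had no GLK1 summit and their median distance was 5533 bp.

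The nearest sites lay exactly 150 bp from a summit of 1 GLK1 list and farther from the other list. At 129797410 on chromosome 7 GLK2 had 25.5 and 14.3. The nearest GLK1 summits had 5.45 and 10.9 at 239 and 150 bp. At 11940105 on chromosome 2 GLK2 had 29.2 and 10.3 and GLK1 3.89 and 4.68 at 550 and 150 bp. At 168037878 on chromosome 6 GLK2 had 26.9 and 10.7 and GLK1 4.67 and 3.83 at 150 and 181 bp. At all 3, GLK1 was lower than GLK2 in the replicate of the same number. The farthest site, at 65629055 on chromosome 3, was 2487743 bp from GLK1 and had modest fold changes of 12.7 and 6.48. The next were stronger. The site at 90769406 on chromosome 2 had 40.9 and 31.6 at a distance of 1357083 bp, and the site at 93306228 on chromosome 5 had 25.4 and 16.9 at 1341499 bp. All 3 farthest sites were the only summit of their region.

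A small number of strong GLK2 sites had no GLK1 summit for a long way. Outside the chromosome 3 group, the strongest of the 486 sites at 10 kb or more were named after their values were seen. The site at 111353259 on chromosome 5 had 54.9 and 36.5 and lay 113593 bp from GLK1, followed by the chromosome 2 site at 90769406. At 150684812 on chromosome 7 the values were 37.0 and 28.4, 17906 bp from GLK1, in a region of 5 summits. At 53284110 on chromosome 2 they were 38.0 and 21.5 at 74451 bp, and at 101253392 on the same chromosome 32.0 and 24.4 at 150684 bp.

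The sites were spread over all 10 chromosomes. Chromosome 1 held 329 of them, or 40.1% of its 820 paired GLK2 sites, chromosome 5 held 249 of 609 (40.9%) and chromosome 3 held 209 of 619 (33.8%). The lowest share was on chromosome 6, with 109 of 342 (31.9%, 27.2 to 37.0), and the shares on the other 6 chromosomes lay between 32.1% and 38.1%. The intervals of 7 chromosomes included the genome-wide 36.4%. Those of chromosome 1 (36.8 to 43.5) and chromosome 5 (37.1 to 44.8) began just above it, and that of chromosome 2 (28.3 to 36.2) ended just below. Taken per length, there were 1.11 sites per Mb on chromosome 5, 1.07 on chromosome 1 and 0.527 on chromosome 4. Over their 223, 307 and 247 Mb these chromosomes held 609, 820 and 353 paired GLK2 sites. Paired GLK2 sites as a whole were thus also sparser on chromosome 4, where 36.8% of them had no GLK1 summit. Length was taken as the largest summit coordinate of a chromosome in the 4 lists.

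Along the chromosomes the sites lay mainly in the outer parts, as did the GLK2 sites with a GLK1 summit. In 5 equal bins from the first to the last base, 24.8%, 7.67%, 7.55%, 18.6% and 41.3% of the sites without a GLK1 summit were found, against 24.7%, 7.83%, 8.10%, 21.3% and 38.1% of those with one. The central 50% of the chromosomes held 425 of the sites without a GLK1 summit (25.1%, 23.1 to 27.2) and 833 of those with one (28.1%, 26.5 to 29.8). With the rows of replicate 2 the shares were 26.0% and 27.3%. The share was lower without a GLK1 summit from either list, by a smaller margin from replicate 2, and no test was made since sites of 1 library are not replicates. Of the 220 sites at 100 kb or more from GLK1, 36.8% lay in the central 50%, whereas 22.6% to 24.5% did in the 4 nearer bands. Paired GLK2 sites of both kinds were sparse in the central part.

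**Figure D5:**
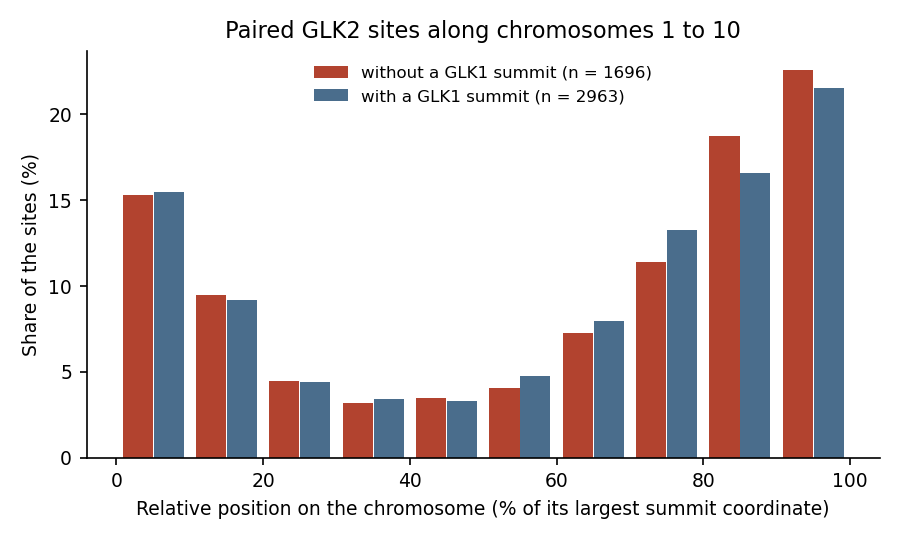
Share (%) of GLK2 sites without a GLK1 summit (n = 1696) and with one (n = 2963) in 10 equal bins along chromosomes 1 to 10, as a percentage of the largest summit coordinate of each chromosome. Both kinds of site are most frequent at the ends, above all at the end with high coordinates, and 25.1% and 28.1% of them lie in the central 50%.

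Sites without a GLK1 summit were often close to each other. Within 1 kb, 622 (36.7%) had another such site, whereas 788 (26.6%) of the sites with a GLK1 summit had another of their own kind. Within 500 bp the shares were 30.2% and 21.0%, and within 10 kb 46.8% and 43.0%. Nearly all of these neighbours were summits of the same peak region: when only neighbours from another region were counted, 17 sites (1.00%) and 15 sites (0.506%) had one within 1 kb. Joined at gaps of up to 1 kb, the 1696 sites formed 1346 groups, of which 1074 were single sites, 211 pairs, 47 groups of 3, 11 of 4 and 3 of 5.

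The 3 groups of 5 were unlike each other. The first is part of the chromosome 3 group, from 752753 to 754459. The second lies on chromosome 1 between 10680657 and 10681677, in a single region of 9 GLK2 summits that also holds a site with a GLK1 summit. Its fold changes were 23.0 to 27.8 in replicate 1 and 6.27 to 14.8 in replicate 2, and the nearest GLK1 summit was 1344 bp from its first site. The third lies on chromosome 10 between 128396191 and 128397683, with fold changes of 10.6 to 22.4 and 6.75 to 10.3, and its sites were 1388 to 2880 bp from GLK1. Only the first group held sites with a fold change above 27.8 in replicate 1.

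On the scale of megabases, 773 of 2108 bins of 1 Mb held a site, and neighbouring sites were a median of 313675 bp apart. The longest stretch without one was 39225090 bp on chromosome 1, from 110297176 to 149522266. Paired GLK2 sites of any kind were few inside this stretch, and all of them had a GLK1 summit. Gaps and bins were not counted for all paired GLK2 sites. Whether the gaps and full bins are particular to the sites without a GLK1 summit was therefore not tested. The fullest bin, named after its count was seen, was that of chromosome 1 starting at 39 Mb with 18 sites, followed by 12 at 33 Mb on chromosome 1 and 12 at 206 Mb on chromosome 5. In the fullest bin, 12 of the 18 sites shared a region with a GLK2 site that had a GLK1 summit. The strongest of them, at 39357697, 39598041 and 39495290, had fold changes of 58.5, 53.8 and 53.3 in replicate 1 and 22.6, 25.8 and 38.3 in replicate 2, and lay 193, 160 and 261 bp from GLK1.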

How the data were processed

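The 4 maize libraries (2 replicates each of ZmGLK2 and ZmGLK1) were grouped by the TF and replicate in their labels. The submitters' processing notes name Bowtie2 2.3.2, SAMtools and MACS2 2.2.1, and the build is B73 RefGen_v4. According to the methods, the authors trimmed the reads, mapped them, and removed reads of low mapping quality and duplicates. They ran MACS2 on every library by itself with its option to split peaks into summits. For their own binding sites they then kept only summits that passed IDR, a filter on replicates, and a fold change cut-off. That step was not applied here, so the sites described are not the study's called binding sites. The control is not given in the sources used here. Each line of the deposited lists is 1 summit. It gives a 150 bp window, a fold change against the control (a ratio made by the authors), the −log10 p-value, the −log10 q-value and where in the window the summit is. The authors' score, also deposited, was not used. The lowest −log10 q-value of the deposited lists was 1.30 to 1.31, which is a q-value threshold of 0.05.

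Summits were paired when less than 150 bp apart, each with its nearest summit. A peak region is the set of summits that MACS2 gave the same peak number. Only the maize lists were used, and of the other 16 lists only lines were counted. Such lists do not hold the read depth, and the study reports it only as a range for its maize libraries. No floor for a missing GLK1 summit can therefore be given. Shares have 95% Wilson intervals. No test was made, since the fold changes and positions chose the sites and sites of 1 library are not replicates. The labels do not say whether the replicates were separate protoplast preparations.

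The sites and all lists were chosen with earlier results of these data known. The sites named are the 10 with the highest geometric mean of both GLK2 fold changes, the strongest of each chromosome, the 3 just inside and the 3 just outside the limit of 5, the 3 nearest to and the 3 farthest from GLK1, and the 3 largest groups at 1 kb. Any other is said to be named after its values were seen. The pairing of summits, the choice of sites and their distance to GLK1 were tested on simulated summits. Those summits lay far apart, each in its own region, so regions with several summits, grouping and position were not tested in this way. The alternatives changed the fold change minimum, the pairing distance, the GLK1 rule, the starting list, the q-value minimum, the merging of summits and the libraries used. Another 3, marked in the closing section, were added after the data were seen. No maize genome or annotation was used here, so sequences, motifs and genes of the sites were not analysed. The scripts ran under Python 3.11.15 (pandas 2.3.3, numpy 2.4.6, matplotlib 3.10.9, scipy 1.17.1).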

Additional observations from a re-analysis of the deposited data

Results flagged for a closer look

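Sequences outside chromosomes 1 to 10 were not part of the comparison, and on the unplaced contigs of the maize build GLK2 summits met the same rule. There, 23 of 51 paired GLK2 summits (45.1%) had no GLK1 summit less than 150 bp away. The 95% Wilson interval of this share, 32.3 to 58.6, includes the 36.4% of chromosomes 1 to 10. They lay on 11 contigs, with median fold changes of 17.0 in GLK2 replicate 1 and 7.73 in replicate 2 and highest values of 52.7 and 21.5. On the plastid sequence 1 paired GLK2 summit was found, and it had a GLK1 summit. On the mitochondrial sequence no GLK2 summit was paired, since GLK2 replicate 2 had 0 summits there and replicate 1 had 29, whereas the GLK1 lists had 663 and 618.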

How the results depend on the processing

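Of 138 values under alternative settings, 75 stayed within the spread of the reported value and 63 moved. Only the log2 differences, with 18 values in each GLK2 replicate, could change direction, and 0 did. Counts, shares and distances have no sign, so a change of direction was not possible for them. For the number of sites the spread was set as a factor of 1.5. The 2452 sites with a GLK1 distance of 75 bp therefore counted as within the spread of 1696. GLK2 sites without a GLK1 summit had the lower median GLK2 fold change under every setting run. The number of sites was 439 (21.5% of the paired sites) at a minimum fold change of 10, 1123 (32.8%) with GLK2 replicates within 75 bp, 810 (17.4%) without a GLK1 summit within 1000 bp and 2874 (61.7%) when a summit in both GLK1 lists was needed to leave a site out. The share was 40.6% both at a minimum of 3 and with no minimum, 41.6% with GLK2 replicates within 300 bp, 42.6% when only GLK1 summits with a fold change of 5 or more counted, 52.6% with a GLK1 distance of 75 bp, 34.6% from the rows of GLK2 replicate 2 and 33.0% at a −log10 q of 5 or more.

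Leaving out 1 library at a time gave 2045 to 6243 sites, the most without GLK2 replicate 2, and shares of 38.1% to 58.0%. Each of these runs drops a condition of the rule, so the number could only rise. It started from 1696, or from the 1586 of replicate 2 when GLK2 replicate 1 was left out. Without a GLK1 list the share, too, could only rise. The log2 differences then were -0.79 to -0.42 in GLK2 replicate 1 and -0.68 to -0.53 in replicate 2. The share in the central 50% was 25.3% to 26.2%, that with a neighbour within 1 kb 38.8% to 46.0%, and the median distance to GLK1 712 to 5455 bp, the longest without GLK1 replicate 1.

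The log2 difference in replicate 1 was -0.26 at a minimum of 10, -0.55 with replicates within 300 bp, -0.57 with GLK1 summits of 5 or more, -0.69 with no GLK1 summit within 1000 bp, -0.66 when both GLK1 lists were needed and -0.39 at a −log10 q of 5 or more. In replicate 2 it was -0.32 at a minimum of 10, -0.63 at a minimum of 3 and with none, -0.72 when both GLK1 lists were needed and -0.50 at a −log10 q of 5 or more. The share in the central 50% was 22.6% at a minimum of 10, and the central 20% held 7.55%. The share with a neighbour within 1 kb was 31.2% at a minimum of 10, 22.6% and 48.7% with replicates within 75 and 300 bp, 39.9% with GLK1 summits of 5 or more, 42.6% when both GLK1 lists were needed, 32.0% from the rows of replicate 2 and 31.3% with summits of overlapping windows merged. It was 30.2% within 500 bp, 46.8% within 10 kb and 1.00% without neighbours of the same region. The median distance was 20057 bp without a GLK1 summit within 1000 bp, which this setting fixes in part, and 5116.5 bp to GLK1 replicate 2 alone. The spread set for this distance was 2699.7 bp, the SD of the medians to the 2 GLK1 replicates. It exceeds the 826 bp itself, so other settings counted as within it although they differ by over 1.5 times. These gave 336 bp at a minimum of 10, 294 bp with a GLK1 distance of 75 bp and 208 bp when both GLK1 lists were needed. They also gave 2651.5 bp with GLK1 summits of 5 or more (1856 bp for the same sites) and 3372.5 bp with the highest paired summit of each region. The last of them were 2271 bp without GLK2 replicate 2 and 1298.5 bp to GLK1 replicate 1 alone.

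Among the settings added after the data were seen, leaving out the 6 chromosome 3 summits moved no value. With the highest paired summit of each region there were 1004 sites (29.5%), a log2 difference of -0.61 in replicate 1, 27.4% in the central 50% and 0.398% with a neighbour within 1 kb, since each region then has 1 summit. Without the sites whose region holds a site with a GLK1 summit there were 1095 (27.0%), with -0.64, 34.2% and a median distance of 5533 bp. The cause of the other moves was not tested. Motif windows were not run, since no maize genome was used. No paired analysis was possible because no test was made. With 2 libraries per TF, a depth reported only as a range and an unnamed control, a missing GLK1 summit shows only that none was listed.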
